A study of Mus musculus with 10 samples.

Results

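The accessibility of chromatin was examined around 10 chemokine genes in Myc-CaP, a mouse prostate cancer cell line of FVB/NJ background. The genes were grouped by the pathway best known to induce them: *Cxcl9*, *Cxcl10* and *Cxcl11* as interferon-induced ligands, *Cxcl1*, *Cxcl2*, *Cxcl5*, *Ccl2* and *Ccl20* as NF-κB-induced ligands, and *Ccl5* and *Cxcl16*, which either route can induce, apart from both. Every called interval that overlapped one of these genes (GENCODE M21 annotation, mm10) extended by 20 kb on each side was taken, and intervals of different lists that shared at least 1 bp were merged into a region. This gave 60 regions of the 211107 in the genome, 18 near interferon-induced ligands, 27 near NF-κB-induced ligands and 15 near *Ccl5* and *Cxcl16*. Because neighbouring genes lie close together, 15 regions fell in the windows of more than 1 member.

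Chromatin was profiled by ATAC-seq, in which a transposase cuts open DNA, in 10 libraries. Cells were left untreated (Ctrl) or were exposed for 48 h to 2 µM oxaliplatin (Oxali), to 2 µM cisplatin (Cispl), to IFNγ (1000 pg, with no volume given in the labels) or to 2 µM oxaliplatin and 1000 pg IFNγ together (Oxali + IFNγ), with 2 libraries in each group. The 2 libraries of a group were pooled before intervals were called, so there was 1 list per group, no spread between replicates could be measured and no test of a treatment could be made. Intervals given here are 95% intervals for counting error alone, and reads in a pileup are not independent molecules. All groups come from 1 cell line, so the values describe that line.

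Chemokines are small secreted proteins that set up gradients along which leukocytes migrate, and their receptors are G protein-coupled receptors on the responding cells. CXCL9, CXCL10 and CXCL11 bind CXCR3 and attract activated T cells and NK cells, and their genes are classic targets of IFNγ. CXCL1, CXCL2 and CXCL5 bind CXCR2 and attract neutrophils, CCL2 attracts monocytes through CCR2, and CCL20 attracts CCR6+ lymphocytes and dendritic cells. Genes of that second group are known targets of *NF-κB*. CCL5 draws in T cells and monocytes, and CXCL16 is a membrane-anchored ligand of CXCR6.

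The sequences printed here, read from the reference genome (GRCm38, C57BL/6J strain, so that bases particular to FVB are not shown) or from RefSeq promoters on the same build, are those at which the values that follow were measured or to which they refer. Each runs 5′ to 3′ on the strand of the gene, and capitals mark matches to the κB consensus of 10 letters, the ISRE core GAAANNGAAA, the GAS element TTCNNNGAA or the AP-1 element TGANTCA, each searched on both strands. RefSeq promoters matched 5 of the 10 members (*Cxcl1*, *Cxcl2*, *Cxcl9*, *Cxcl10* and *Ccl20*). The 250 bases before the *Cxcl10* start (chr5:92348890-92349139, minus strand) are shown because its accessible region lies over them, and they hold 1 ISRE match, 2 κB matches and 1 AP-1 match, in that order.
Cxcl10 promoter: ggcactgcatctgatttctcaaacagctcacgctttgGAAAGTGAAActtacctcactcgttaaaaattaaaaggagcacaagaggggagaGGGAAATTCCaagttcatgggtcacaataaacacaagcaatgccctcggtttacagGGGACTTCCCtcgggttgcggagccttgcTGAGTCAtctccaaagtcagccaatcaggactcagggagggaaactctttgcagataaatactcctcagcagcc
The *Cxcl11* stretch (chr5:92363339-92363368, minus strand) begins 91 bases before the start of the protein-coding transcript and holds an AP-1 match and a κB match.
Cxcl11 start-site region: acgTGAGTCAaggaGGGGAATTCCtgatac
The stretches from 100 to 51 bases before the RefSeq starts of *Cxcl1* (chr5:90891145-90891194, plus strand), *Cxcl2* (chr5:90903799-90903848, plus strand) and *Ccl20* (chr1:83116666-83116715, plus strand) are set beside each other for their κB matches. In *Cxcl1* and *Cxcl2* the capitals mark 2 overlapping matches, 1 on each strand, over the same run of letters.
Cxcl1 promoter: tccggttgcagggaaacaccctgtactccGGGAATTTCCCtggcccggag
Cxcl2 promoter: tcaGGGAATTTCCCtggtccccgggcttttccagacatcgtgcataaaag
Ccl20 promoter: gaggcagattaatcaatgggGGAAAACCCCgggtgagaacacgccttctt
The summit of the upstream *Ccl5* region (chr11:83534775-83534975, minus strand) is shown for its κB match and its ISRE match, and the summit of the intronic *Ccl5* region (chr11:83528067-83528267, minus strand) for the repeat it lies in, with 2 AP-1 matches.
Ccl5 upstream region: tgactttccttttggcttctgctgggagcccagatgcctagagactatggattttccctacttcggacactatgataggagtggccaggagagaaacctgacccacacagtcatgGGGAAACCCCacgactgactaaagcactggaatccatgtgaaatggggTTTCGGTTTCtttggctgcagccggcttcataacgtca
Ccl5 intronic region: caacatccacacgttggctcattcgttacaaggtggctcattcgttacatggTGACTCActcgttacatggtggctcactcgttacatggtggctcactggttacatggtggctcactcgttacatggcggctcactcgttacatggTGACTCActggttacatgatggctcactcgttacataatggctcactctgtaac

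Accessibility is given as a level, which is the highest pileup of reads in a region divided by the genome background of its list. That background followed the depth of each list and was 12.1 reads in the Ctrl list, 11.3 in the Oxali list, 13.8 in the Cispl list, 9.62 in the IFNγ list and 12.9 in the list of the combination. Over the 85377 regions called in every list, the median log2 change in level against Ctrl was 0.15 after Oxali, 0.07 after Cispl, -0.25 after IFNγ and 0.14 after Oxali + IFNγ. The change depended on the level in Ctrl. When regions were split into 10 equal bins by that level, its median after Oxali + IFNγ was 0.91 in the lowest bin and -0.98 in the highest, so changes of single regions are set beside the median of their own bin. The Cispl list held no interval under a −log10 p of 2.99, whereas the other lists reached 2.00, which limits weak calls in that list.

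Among genes of luminal epithelium, *Krt8*, *Krt18*, *Foxa1* and *Hoxb13* had a strong region (q-value of at most 0.01) at a start site in Ctrl, *Epcam* had one in the IFNγ list alone and *Cdh1* had none in any list. Among genes of immune, fibroblast and endothelial cells, *Col1a1*, *Pdgfra* and *Pecam1* had one in Ctrl, with *Pdgfra* at a level of 112, *Adgre1* had one in the Cispl list alone, and *Cd3e* and *Cdh5* had none in any list. *Ptprc* and *Lyz2* had one in the Oxali, Cispl and Oxali + IFNγ lists and in neither of the other two, and the part of this in the results was not tested.

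The interferon-induced ligands lie in a row on chromosome 5, and the regions at the *Cxcl10* start and up to 4912 bp before it were higher after Oxali and after Oxali + IFNγ than in Ctrl. The start-site region of *Cxcl10* (chr5:92348617-92349213, over the first exon and promoter and inside an intron of *Art3*) had a level of 7.66 in Ctrl (pileup 93), 16.4 after Oxali (185), 12 after Cispl (165), 9.04 after IFNγ (87) and 16.1 after Oxali + IFNγ (208). Both lists with oxaliplatin thus stood highest and Cispl came next, while IFNγ did not differ from Ctrl beyond counting error. Against Ctrl the ratio was 2.14 (95% interval 1.66 to 2.78) after Oxali, 1.56 (1.21 to 2.04) after Cispl, 1.18 (0.871 to 1.6) after IFNγ and 2.1 (1.64 to 2.72) after Oxali + IFNγ. On the log2 scale these were 1.10, 0.65, 0.24 and 1.07, where the bin of regions with a like Ctrl level had medians of 0.32, 0.32, -0.27 and 0.35. Taken as the deposited fold enrichment over local background, the log2 changes were 0.54, 0.51, -0.06 and 0.20, so that the IFNγ value turned sign. The middle 90% of that bin ran from -0.66 to 1.52 after Oxali, so a change of this size was within the spread of regions in the genome.

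A pair of further regions upstream of *Cxcl10*, both in *Art3* introns, likewise had its lowest levels in Ctrl. The one with its summit 783 bp before the start (chr5:92349315-92349806) had levels of 2.39 in Ctrl, 5.15 after Oxali, 2.98 after Cispl, 4.26 after IFNγ and 6.20 after Oxali + IFNγ. The one 4912 bp before the start (chr5:92352857-92353944) had 4.37, 8.07, 6.18, 6.86 and 10.5 in the same lists. Oxali + IFNγ was the highest list at both, and the ratio to Ctrl was 2.59 (1.68 to 4.12) at the nearer and 2.40 (1.73 to 3.36) at the farther. On the log2 scale these were 1.38 and 1.26, beside bin medians of 0.91 and 0.64. As fold enrichment they were 0.49 and 0.66, and at the nearer region Oxali (0.56) and IFNγ (0.58) then stood above the combination. After IFNγ alone the ratios were 1.78 (1.08 to 2.98) and 1.57 (1.08 to 2.30), and these were the only regions of the 31 called in every list with a level at least 1.5-fold higher in IFNγ. The log2 changes after IFNγ, 0.83 and 0.65, stood beside bin medians of 0.18 and -0.08, and as fold enrichment they were 0.58 and 0.61. By fold enrichment only 1 of the 31 was at least 1.5-fold higher. Scaling by the median of regions called in every list adds 0.23 to every log2 change in level after IFNγ, and further regions then pass. Farther out, 9341 bp before the start (chr5:92358024-92358454, in *Art3*), levels were instead highest in Ctrl, at 13.0, 10.6, 11.8, 9.46 and 9.22 in the same lists. There the ratio was 0.811 (0.634 to 1.04) after Oxali and 0.708 (0.554 to 0.904) after Oxali + IFNγ, a log2 change of -0.50 beside a bin median of 0.15. A small region within the gene (chr5:92348359-92348508) was called in the IFNγ list (pileup 20) and in the Oxali + IFNγ list (39) and in no other, and it passed the q-value of 0.01 in the latter. It lay 108 bp from a Ctrl region, and a call there needed 30 reads in Ctrl, 28 in Oxali and 38 in Cispl. Its level in IFNγ, 2.08, was under the Ctrl calling level of 2.47. After Oxali + IFNγ it was at least 1.22-fold higher than in Ctrl.

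At *Cxcl11* the start-site region was absent from the Ctrl and IFNγ lists. This region (chr5:92363117-92363535) covers the start of the protein-coding transcript, with its summit 114 bp before it, and a longer transcript annotated as a polymorphic pseudogene runs across it. Pileups were 71 after Oxali (level 6.30), 57 after Cispl (4.14) and 133 after Oxali + IFNγ (10.3). A pileup of at least 23 would have been called in Ctrl and of at least 19 after IFNγ, so the level was at least 3.32-fold higher after Oxali, at least 2.19-fold higher after Cispl and at least 5.44-fold higher after Oxali + IFNγ than in Ctrl. Oxali + IFNγ exceeded Oxali by 1.64-fold (1.22 to 2.21), and Oxali exceeded Cispl by 1.52-fold (1.06 to 2.19). This was 1 of the 3 gained regions of highest level after Oxali + IFNγ, gained meaning strong in the treated list with no Ctrl interval. Over exon sequence nearer the 3′ end of *Cxcl11*, a further region (chr5:92360257-92360774) had a pileup of 39 after Oxali and 66 after Oxali + IFNγ and no call in the other lists. The nearest Ctrl region to the *Cxcl11* start-site region lay 4662 bp away.

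Upstream of *Cxcl11* in *Art3*, the region chr5:92370389-92370630 had the highest level of all gained regions with both Oxali (12.6, pileup 142) and Oxali + IFNγ (12.2, pileup 158). It lay 439 bp from a Ctrl region, on a local background of 43.5 reads in Oxali against the genome background of 11.3. The calling threshold in Ctrl was accordingly 68 reads, and the level was at least 2.25-fold higher after Oxali and at least 2.19-fold higher after Oxali + IFNγ. The neighbouring region chr5:92369029-92369949, called in every list, had levels of 51.2 in Ctrl, 71.0 after Oxali, 47.1 after Cispl, 55 after IFNγ and 73.9 after Oxali + IFNγ. Its ratio to Ctrl was 1.39 (1.25 to 1.54) after Oxali and 1.44 (1.30 to 1.6) after Oxali + IFNγ, while its bin had median log2 changes of -0.15 and -0.30. Its log2 changes of 0.47 and 0.53 turned to -0.33 and -0.38 as fold enrichment over the local background.

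*Cxcl9* had no region within 1 kb of its start in any list. Within the gene, a region over exon sequence 4606 bp from the start (chr5:92323057-92323851) had levels of 21.3 in Ctrl, 15.6 after Oxali, 17.3 after Cispl, 16.4 after IFNγ and 16.0 after Oxali + IFNγ, so Ctrl was the highest list. The log2 changes of -0.44, -0.30, -0.37 and -0.41 stood beside bin medians of 0.09, -0.02, -0.27 and 0.05. The strongest region of its window was the start of the neighbouring *Sdad1* (chr5:92308923-92310511), whose levels were 89.4, 65.7, 53.7, 51.7 and 36.3 in the same order. This was the largest decrease among the interferon-induced ligands' regions, with a log2 change of -1.30 after Oxali + IFNγ beside a bin median of -0.98. Between them, chr5:92312197-92312622 was gained with every treatment, at levels of 9.76 after Oxali, 7.92 after Cispl, 7.38 after IFNγ and 9.38 after Oxali + IFNγ. Its Ctrl threshold of 68 reads left bounds of at least 1.74-fold, 1.41-fold, 1.32-fold and 1.67-fold.

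**Figure D1:**
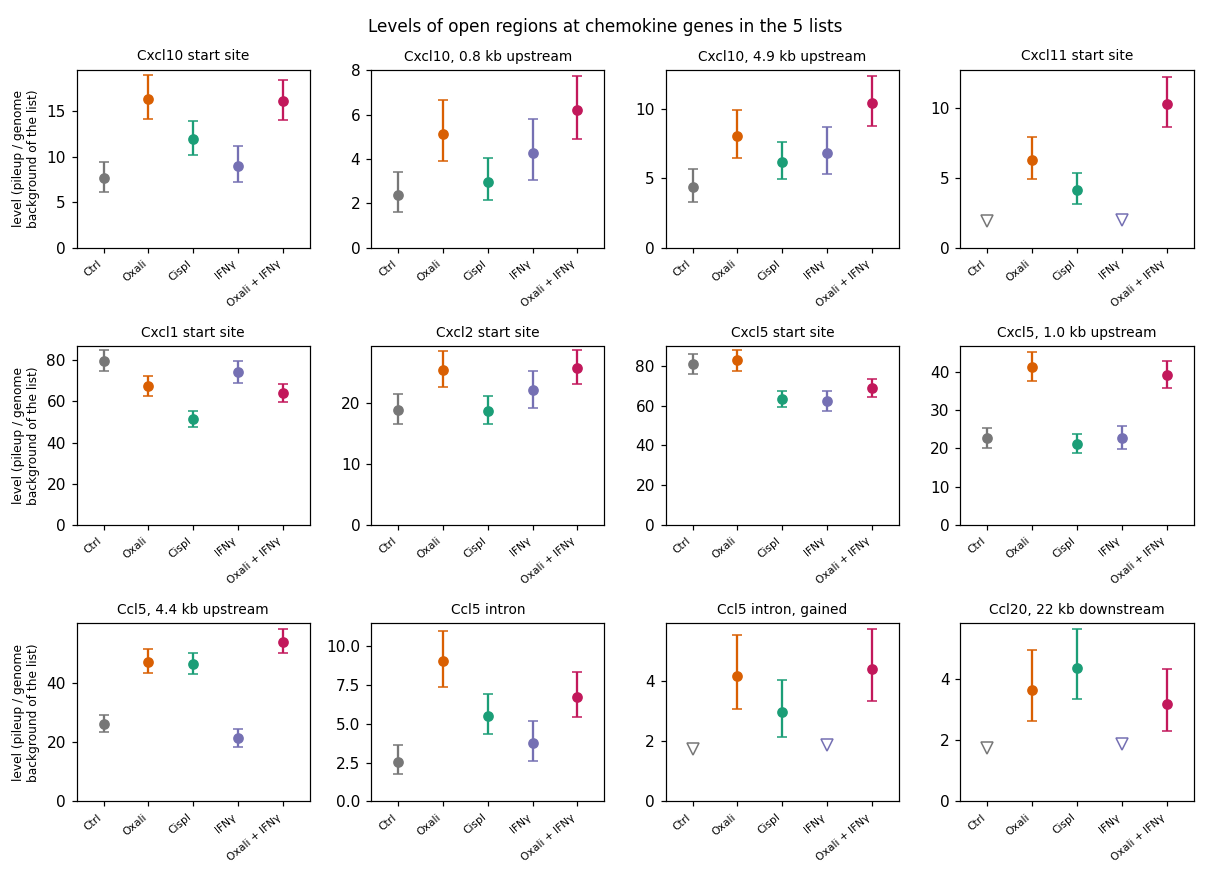
Level (pileup divided by the genome background of the list, linear axis from 0) of 12 regions in the 5 lists, with bars for 95% counting intervals. Open triangles mark the level at which a list without a call would have called the region. Oxali and Oxali + IFNγ stand highest at *Cxcl10* (16.4 and 16.1 at the start site against 7.66 in Ctrl) and at the upstream *Cxcl5* region, whereas Ctrl stands highest at the *Cxcl1* start site (79.7).

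The neutrophil-attracting ligands *Cxcl1*, *Cxcl2* and *Cxcl5* were accessible at their starts in every list. The *Cxcl1* start-site region (chr5:90890605-90891796), over the first exon, had levels of 79.7 in Ctrl, 67.5 after Oxali, 51.4 after Cispl, 74.2 after IFNγ and 63.9 after Oxali + IFNγ. Ctrl was the highest list and Cispl the lowest, with a ratio of 0.645 (0.585 to 0.711). The log2 changes of -0.24, -0.63, -0.10 and -0.32 stood beside bin medians of -0.15, -0.41, -0.33 and -0.30. The IFNγ value turned to 0.13 when pileups were scaled by the median of regions called in every list, and to 0.11 when scaled by their median ratio.

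At *Cxcl2*, whose promoter carries the same κB run as *Cxcl1*, the start-site region (chr5:90902706-90904061) had levels of 18.9 in Ctrl, 25.5 after Oxali, 18.7 after Cispl, 22.1 after IFNγ and 25.8 after Oxali + IFNγ. Its summit lay 809 bp before the start. Both lists with oxaliplatin were the highest, with ratios of 1.35 (1.13 to 1.61) and 1.37 (1.15 to 1.63), or 0.43 and 0.45 on the log2 scale beside bin medians of 0.09 and 0.05. As deposited fold enrichment, however, the log2 changes were -0.08 after Oxali and -0.11 after Oxali + IFNγ, so the direction depended on whether the local background was divided out. After IFNγ the change was 0.23, and -0.10 as fold enrichment.

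*Cxcl5* had a pair of regions at its start. The first (chr5:90758704-90760250), over its exons, had levels of 81.1 in Ctrl, 82.9 after Oxali, 63.4 after Cispl, 62.4 after IFNγ and 68.8 after Oxali + IFNγ, and Oxali did not differ from Ctrl beyond counting error (ratio 1.02, 0.935 to 1.12). The log2 changes of 0.03, -0.36, -0.38 and -0.24 stood beside bin medians of -0.52, -0.74, -0.56 and -0.98, and the Oxali value lay above the middle 90% of its bin. As fold enrichment the Oxali change was -0.53. The second, with its summit 1048 bp before the start (chr5:90757717-90758575), had levels of 22.7 in Ctrl, 41.5 after Oxali, 21.1 after Cispl, 22.8 after IFNγ and 39.4 after Oxali + IFNγ. Here both lists with oxaliplatin stood apart from the other three. The ratio to Ctrl was 1.83 (1.58 to 2.13) after Oxali and 1.74 (1.50 to 2.02) after Oxali + IFNγ, against 0.933 (0.789 to 1.10) after Cispl and 1.00 (0.837 to 1.2) after IFNγ. The Oxali log2 change of 0.87 stood beside a bin median of 0.09 and was 0.36 as fold enrichment, and the local background was 66.5 reads in Ctrl and 88.2 in Oxali.

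Further from the NF-κB-induced genes, regions moved in either direction. The largest change of this set was a decrease after Cispl 5164 bp before *Cxcl5* (chr5:90753678-90754318), where levels were 18.0 in Ctrl, 14.1 after Oxali, 7.77 after Cispl, 19.4 after IFNγ and 14.2 after Oxali + IFNγ. The Cispl ratio was 0.431 (0.339 to 0.545), a log2 change of -1.21 beside a bin median of -0.02. A weak region 9303 bp before *Cxcl1* (chr5:90881486-90882052) had levels of 3.30, 5.94, 5.52, 4.47 and 4.96, which after Oxali was a log2 change of 0.85 beside a bin median of 0.77. Gained regions of this set with the highest levels stood close to Ctrl regions: chr5:90764361-90764540, 5080 bp past the *Cxcl5* start, had a pileup of 136 after Oxali and 154 after Oxali + IFNγ and lay 864 bp from one. After Cispl, chr5:90779411-90779570 had a pileup of 147 and lay 805 bp from one. Between 11 and 12 kb before *Cxcl1*, chr5:90879292-90879584 and chr5:90879654-90879926 were called after Cispl (71 and 69) and IFNγ (58 and 98) only, 610 and 268 bp from one. A call at either needed 58 reads in Ctrl, 55 in Oxali and 62 in Oxali + IFNγ. Levels were at least 1.08-fold and 1.05-fold the Ctrl level after Cispl, and at least 1.26-fold and 2.13-fold after IFNγ.

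*Ccl20* and *Ccl2*, which attract lymphocytes and monocytes, had no called region at their starts. Around *Ccl20* there were 3 regions, none of them in the Ctrl or IFNγ lists and none within 1 kb of the start, although its promoter has a κB match. They lay 16972 bp before the start (chr1:83099695-83100084, pileup 32 after Oxali and 40 after Oxali + IFNγ), 19264 bp after it (chr1:83135903-83136155, 37 and 33) and 22143 bp after it (chr1:83138804-83139013, 41 after Oxali, 60 after Cispl and 41 after Oxali + IFNγ). A pileup of at least 21 would have been called in Ctrl, and the levels were at least 1.48-fold to 2.52-fold higher. The window of *Ccl2* (gene at chr11:82035571-82037453) held 0 regions in any list.

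*Ccl5*, which either route can induce, had no region within 1 kb of its start, but some regions around it, among them the strongest of its window, were higher with both platinum drugs. The upstream region (chr11:83534163-83535357, summit 4357 bp before the start) had a pileup of 317 in Ctrl, 530 after Oxali, 638 after Cispl, 205 after IFNγ and 695 after Oxali + IFNγ. Levels were 26.1, 47.0, 46.4, 21.3 and 53.9, so the 3 lists with a platinum drug stood apart from Ctrl and IFNγ. Ratios to Ctrl were 1.80 (1.56 to 2.08) after Oxali, 1.78 (1.55 to 2.04) after Cispl, 0.816 (0.681 to 0.976) after IFNγ and 2.06 (1.80 to 2.36) after Oxali + IFNγ. The corresponding log2 changes of 0.85, 0.83, -0.29 and 1.04 stood beside bin medians of 0.01, -0.16, -0.26 and -0.05. The middle 90% of that bin reached 0.86 after Oxali, 0.44 after Cispl and 0.84 after Oxali + IFNγ, so the Cispl and Oxali + IFNγ values lay above it. As fold enrichment the changes were 0.36, 0.22, -0.30 and 0.35.

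In the gene itself, an intronic *Ccl5* region (chr11:83527988-83528387) had the largest log2 change of the members' regions. Its levels were 2.55 in Ctrl (pileup 31), 9.05 after Oxali (102), 5.52 after Cispl (76), 3.74 after IFNγ (36) and 6.74 after Oxali + IFNγ (87). Ctrl and IFNγ were lowest and Oxali highest, at 3.54-fold (2.35 to 5.48) the Ctrl level, a log2 change of 1.83 beside a bin median of 0.77. The window at its summit is a tandem repeat: 85.7% of its bases matched the base 19 positions on, and the part of this repeat in the values was not tested. A second intronic region 483 bp from a Ctrl region (chr11:83526966-83527504) had pileups of 47 after Oxali, 41 after Cispl and 57 after Oxali + IFNγ and no call in Ctrl, where at least 21 was needed, or after IFNγ.

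A further pair of regions in the *Ccl5* window was also higher in the lists with a platinum drug. The region 10617 bp before the start (chr11:83540851-83541565) had levels of 3.62 in Ctrl, 6.03 after Oxali, 6.39 after Cispl, 4.37 after IFNγ and 8.68 after Oxali + IFNγ. In an exon of *Heatr9*, 13188 bp past the start (chr11:83516710-83517856), the levels were 20.5, 30.6, 28.6, 18.7 and 35.0. Oxali + IFNγ was the highest list at both, with ratios of 2.39 (1.68 to 3.48) and 1.71 (1.46 to 2.00), or log2 changes of 1.26 and 0.77 beside bin medians of 0.64 and 0.05. A region 13844 bp before the start (chr11:83544208-83545084) had ratios of 1.44 (0.930 to 2.23) after Oxali, 1.99 (1.35 to 2.98) after Cispl and 1.57 (1.04 to 2.39) after Oxali + IFNγ and was not called after IFNγ. The other 3 regions of the window were not called with either platinum drug alone: chr11:83508454-83508786 and chr11:83509697-83509846 were in the IFNγ list only (pileups 21 and 24), and chr11:83550440-83550657 in the Oxali + IFNγ list only (38).

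*Cxcl16* had no region within 1 kb of its start either. The strongest region of its window was the start of the neighbouring *Med11* (chr11:70451570-70452638), whose levels were 113 in Ctrl, 69.4 after Oxali, 61.3 after Cispl, 64.6 after IFNγ and 47.4 after Oxali + IFNγ. Ctrl was the highest list. The log2 change of -1.25 after Oxali + IFNγ stood beside a bin median of -0.98. As deposited fold enrichment the log2 changes of this region were -0.18, -0.24, -0.31 and -0.34. The weaker regions, past the 3′ end of the gene, had higher levels with the platinum drugs than in Ctrl, not all beyond counting error. At chr11:70444646-70445158 the levels were 4.61 in Ctrl, 7.72 after Oxali, 8.43 after Cispl, 3.74 after IFNγ and 7.67 after Oxali + IFNγ, with ratios of 1.67 (1.18 to 2.38), 1.83 (1.32 to 2.56), 0.811 (0.518 to 1.26) and 1.66 (1.19 to 2.35). The log2 changes of 0.74, 0.87, -0.30 and 0.73 stood beside bin medians of 0.55, 0.56, -0.08 and 0.64. In *Arrb2*, chr11:70440005-70440321 had ratios of 1.69 (1.03 to 2.82), 1.54 (0.951 to 2.55), 1.04 (0.570 to 1.87) and 1.51 (0.923 to 2.52), and chr11:70440369-70441391 had 1.16 (0.861 to 1.57), 1.36 (1.03 to 1.80), 0.774 (0.541 to 1.10) and 1.25 (0.940 to 1.67). At the first of these the log2 changes were 0.76, 0.63, 0.05 and 0.60, all under bin medians of 0.77, 0.74, 0.18 and 0.91. At the second they were 0.22, 0.45, -0.37 and 0.32 beside 0.32, 0.32, -0.27 and 0.35, so only the Cispl value was above its median. A further 2 regions were gained after Cispl and after Oxali + IFNγ, at chr11:70444288-70444471 (pileups 44 and 34) and chr11:70446857-70447051 (58 and 41). They lay 174 and 1698 bp from a Ctrl region, where a call in Ctrl needed 25 and 30 reads. Levels were at least 1.55-fold and 1.71-fold higher than in Ctrl after Cispl, and at least 1.28-fold and 1.29-fold after Oxali + IFNγ.

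**Figure D2:**
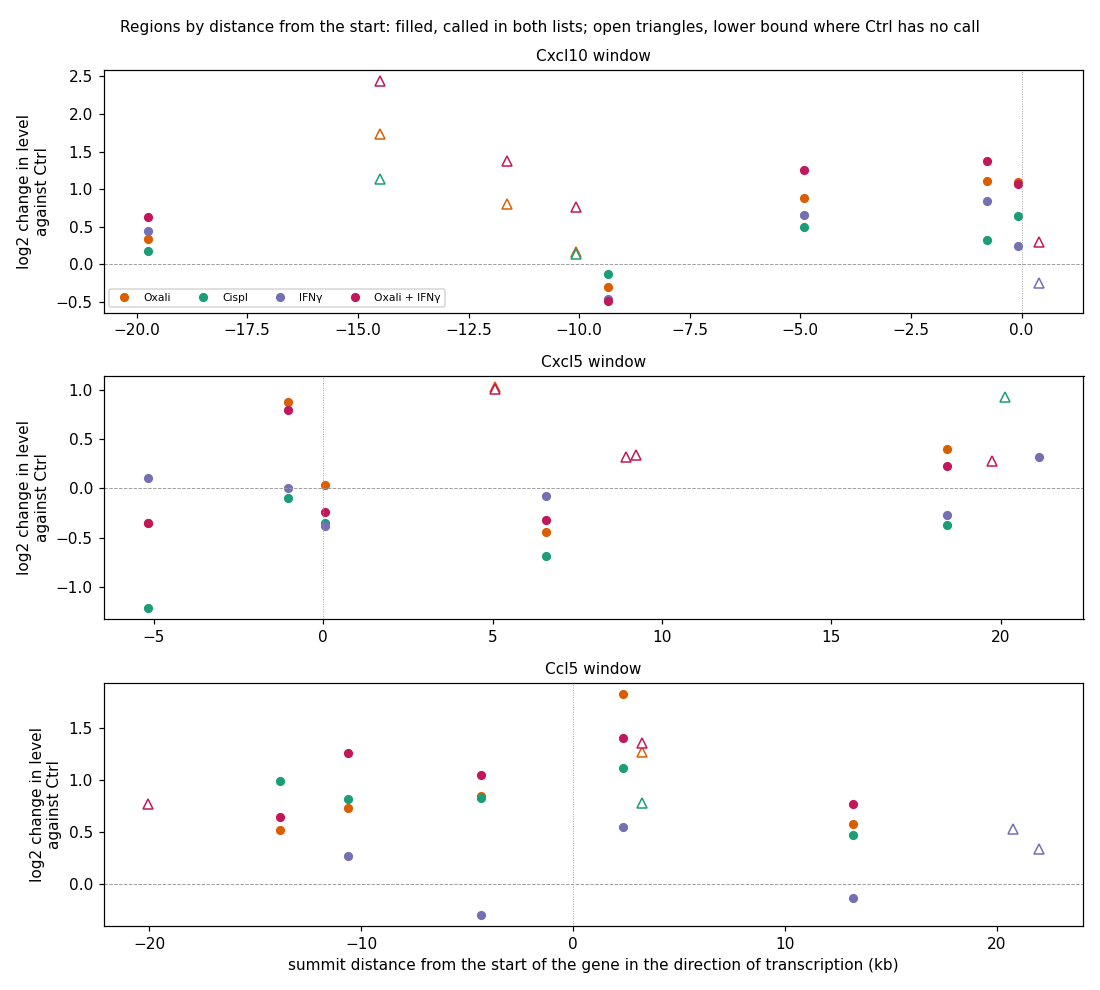
Log2 change in level against Ctrl (vertical axis) by distance of a region's summit from the gene start (kb, in the direction of transcription) in the *Cxcl10*, *Cxcl5* and *Ccl5* windows, coloured by treatment. Filled points are regions called in both lists and open triangles are lower bounds where Ctrl had no call. Between the *Cxcl10* start and 4.9 kb before it the Oxali and Oxali + IFNγ values of regions called in both lists lie between 0.89 and 1.38. Farther out in that window, 9341 bp before the start, they are -0.30 and -0.50, and around *Cxcl5* the values also lie on both sides of 0.

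Counted over all members, gained regions were about as frequent as in the genome. Ctrl had 34 strong regions, Oxali 44, Cispl 44, IFNγ 37 and Oxali + IFNγ 51. After Oxali, 12 of 44 strong regions (27.3%) were gained, where 31.4% of all strong regions were. After Cispl it was 11 of 44 (25.0%) beside 36.5%, after IFNγ 5 of 37 (13.5%) beside 11.8%, and after Oxali + IFNγ 19 of 51 (37.3%) beside 38.1%. These shares are near the background, and that after Cispl is under it. Of the gained regions 4, 5, 2 and 5 lay within 500 bp of a Ctrl region, in that order of treatments. Lost regions were few: 2 of the 34 strong Ctrl regions after Oxali (background 9.02%), 1 after Cispl (6.07%), 2 after IFNγ (15.3%) and 2 after Oxali + IFNγ (7.69%).

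By member, the *Cxcl11* window held 5 gained regions of 13 strong ones after Oxali, 2 of 10 after Cispl, 0 of 8 after IFNγ and 7 of 15 after Oxali + IFNγ, beside the same 31.4%, 36.5%, 11.8% and 38.1% over all regions. The gains of the overlapping *Cxcl10* window, 3 of 8, 2 of 7, 0 of 5 and 4 of 9, were all among them. *Cxcl1* had 1 of 8, 3 of 11, 2 of 9 and 0 of 7, and *Cxcl5* had 1 of 6, 1 of 6, 0 of 6 and 4 of 9. In the interferon-induced set, 6 of 16 strong regions were gained after Oxali, 3 of 13 after Cispl, 1 of 11 after IFNγ and 8 of 18 after Oxali + IFNγ. The NF-κB-induced set had 5 of 18, 5 of 19, 3 of 17 and 7 of 20, and *Ccl5* and *Cxcl16* together had 1 of 10, 3 of 12, 1 of 9 and 4 of 13. Within 1 kb of a start, the gained regions were the *Cxcl11* region and the small *Cxcl10* region described above.

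Of the 31 members' regions called in every list, 10 had a level at least 1.5-fold higher after Oxali (background 27.7%), 7 after Cispl (23.1%), 2 after IFNγ (3.7%) and 12 after Oxali + IFNγ (29.3%). A level at least 1.5-fold lower was found in 1 after Oxali (8.39%), 5 after Cispl (13.9%), 3 after IFNγ (19.4%) and 2 after Oxali + IFNγ (16.1%). The median log2 change of the 31 was 0.34, -0.10, -0.10 and 0.32, beside 0.15, 0.07, -0.25 and 0.14 over all regions. As deposited fold enrichment, in contrast, 4, 2, 1 and 4 of the 31 were at least 1.5-fold higher (19.3%, 16.6%, 2.44% and 20.4% of all regions) and 1, 2, 2 and 5 at least 1.5-fold lower (5.08%, 7.16%, 13.3% and 10.5%), and the median was -0.08, -0.08, -0.21 and -0.11 beside 0.03, -0.04, -0.22 and 0.01. The direction of 6, 1, 5 and 6 regions differed between these scales. Scaling by the median of regions called in every list moves the log2 changes in level by -0.37, -0.26, 0.23 and -0.37. The level counts and their background shares move with them. By level, *Ccl5* and *Cxcl16* held 5, 5, 0 and 6 of the higher regions among their 8. The interferon-induced ligands held 3, 1, 2 and 4 among 10, and the NF-κB-induced ligands 2, 1, 0 and 2 among 13. These set counts are by level alone. Of those higher after Oxali, chr11:83527988-83528387 and chr11:70440005-70440321 lay in the lowest bin of Ctrl level, whose median was 0.77. The regions chr11:70444646-70445158 and chr11:83540851-83541565 lay in the next bin, whose median was 0.55.

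**Figure D3:**
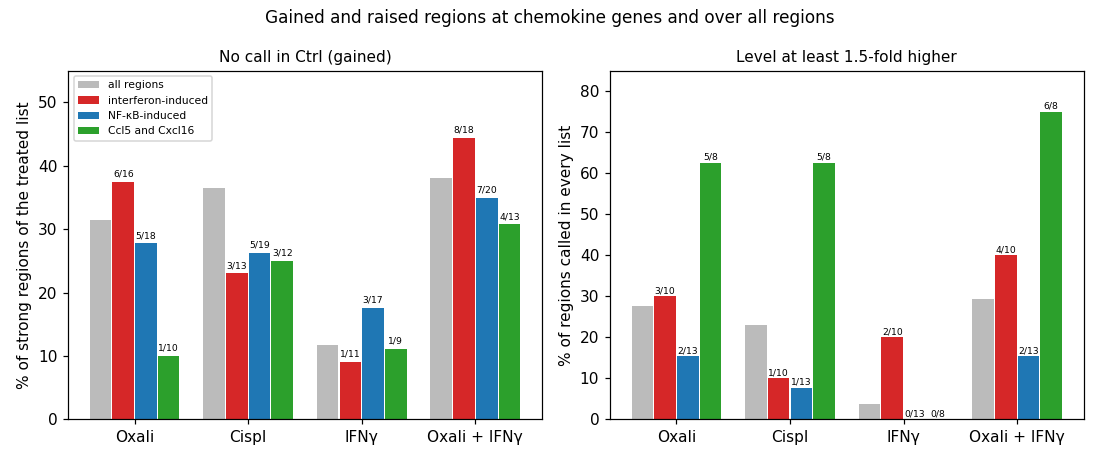
Share (%) of strong regions of each treated list with no call in Ctrl (left) and of regions called in every list with a level at least 1.5-fold higher than Ctrl (right), for all regions of the genome and for the 3 groups of ligands, with counts above the bars. Gained shares of the ligands lie around those of all regions (31.4% after Oxali), and on the right *Ccl5* and *Cxcl16* hold 5 of 8, 5 of 8, 0 of 8 and 6 of 8. Several of these regions had low levels in Ctrl, where the median change over all regions was itself higher (0.77 after Oxali in the lowest bin).

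The interferon-induced and NF-κB-induced ligands were compared by the summed level of their regions called in every list. For the 10 regions of the interferon-induced set the sum was 234 in Ctrl, 239 after Oxali, 192 after Cispl, 190 after IFNγ and 217 after Oxali + IFNγ. For the 13 regions of the NF-κB-induced set it was 458, 469, 342, 418 and 446. After Oxali the log2 changes against Ctrl were 0.03 and 0.03, and after Cispl -0.29 and -0.42. After IFNγ they were -0.30 and -0.13, and after Oxali + IFNγ -0.11 and -0.04. The direction of some sums against Ctrl depended on the scaling. After Oxali they turned to -0.35 and -0.34 when scaled by the median of regions called in every list, to -0.15 and -0.14 by their median ratio and to -0.20 and -0.29 as fold enrichment. The NF-κB-induced sum after IFNγ turned to 0.10 and 0.08 under the first and second of these. The difference, interferon-induced minus NF-κB-induced, was -0.01 after Oxali (-0.10 to 0.09), 0.14 after Cispl (0.04 to 0.23), -0.17 after IFNγ (-0.27 to -0.07) and -0.07 after Oxali + IFNγ (-0.16 to 0.02).

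These differences turned on which regions entered the sums. The *Sdad1* start was the strongest region of the interferon-induced set in Ctrl, and leaving out the strongest region of each set gave differences of 0.22, 0.37, 0.02 and 0.32. In windows of 5 kb, the interferon-induced sum changed by 0.34, -0.02, 0.06 and 0.42 on the log2 scale and the NF-κB-induced sum by -0.02, -0.44, -0.16 and -0.10, so the differences were 0.37, 0.42, 0.22 and 0.53. As medians over regions, the changes were 0.26, -0.12, -0.11 and 0.28 for the interferon-induced set, 0.02, -0.36, -0.07 and 0.22 for the NF-κB-induced set, and 0.74, 0.72, -0.21 and 0.75 for *Ccl5* and *Cxcl16*. The summed level of the last group, 180 in Ctrl, changed by 0.02, -0.08, -0.53 and -0.06, and by 0.35, 0.20, -0.24 and 0.33 as fold enrichment, with the *Med11* start as its strongest region. Sum and median thus differed in sign after Oxali + IFNγ for both the interferon-induced and NF-κB-induced ligands, and with both Cispl and Oxali + IFNγ for *Ccl5* and *Cxcl16*.

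**Figure D4:**
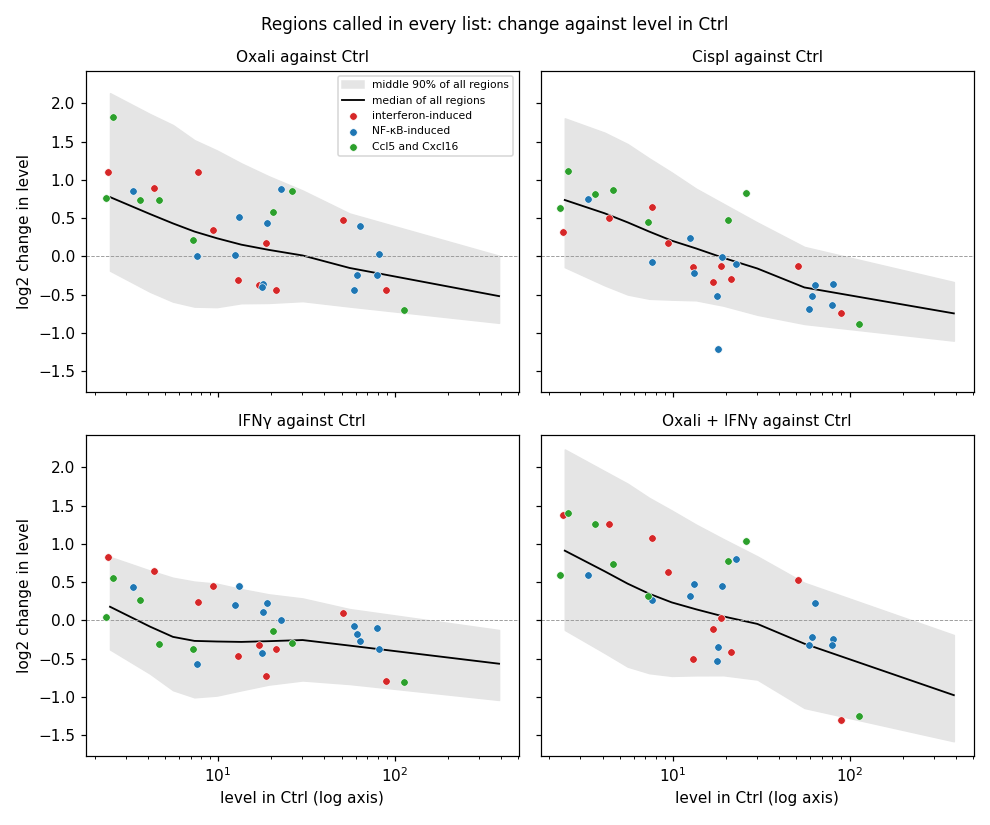
Log2 change in level against Ctrl (vertical axis) by level in Ctrl (horizontal log axis) for the 31 members' regions called in every list, coloured by ligand set. The black line is the median and the grey band the middle 90% of all 85377 regions, by bin of Ctrl level; both slope down with rising level, from a median of 0.77 in the lowest bin to -0.52 in the highest after Oxali. Most members' points lie in the band. Among those outside it, the upstream *Ccl5* region lies above it in Cispl (0.83) and Oxali + IFNγ (1.04), and the region 5164 bp before *Cxcl5* under it in Cispl (-1.21).

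Oxali and Cispl are platinum drugs that differ in the groups bound to the metal: cisplatin carries ammine and chloride ligands, and oxaliplatin a diaminocyclohexane and an oxalate group. Both were given at 2 µM for 48 h, and this was the 1 pair of compounds compared. Of the 31 regions, 7 had a level at least 1.5-fold higher after Oxali than after Cispl (background 12%) and 0 a level at least 1.5-fold lower (background 5.22%). The 7 were 4 near NF-κB-induced ligands, 2 near interferon-induced ligands and the *Ccl5* intronic region. This count depended on the scaling. By deposited fold enrichment, an alternative added after the values were seen, only the *Ccl5* intronic region stayed at least 1.5-fold higher, at 1.61-fold, and 0 regions were lower (background 6.62% and 3.93%). On the level scale the upstream *Cxcl5* region differed most, at 1.96-fold (1.69 to 2.28), and the *Cxcl10* start site differed by 1.37-fold (1.10 to 1.70), while as fold enrichment they differed by 1.38-fold and 1.02-fold. The upstream *Ccl5* region had a ratio of 1.01 (0.902 to 1.14). The median log2 ratio of Oxali to Cispl was 0.24 over the members' regions and 0.13 over all regions, and 0.04 and 0.10 as fold enrichment. The summed level was 1.24-fold (1.18 to 1.31) for the interferon-induced set, 1.37-fold (1.32 to 1.43) for the NF-κB-induced set and 1.07-fold (1.01 to 1.14) for *Ccl5* and *Cxcl16*. As fold enrichment these sums had ratios of 0.991, 1.03 and 1.11, and scaled by the median of regions called in every list 1.15, 1.27 and 0.993.

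The combination was also set against Oxali alone. Among the 31 regions, 0 had a level at least 1.5-fold higher after Oxali + IFNγ than after Oxali (background 2.33%) and 1, the *Sdad1* start, a level at least 1.5-fold lower (5.38%), and by fold enrichment both counts were 0 (1.78% and 1.84%). At the *Cxcl10* start site the ratio was 0.982 (0.802 to 1.2), or 0.786 as fold enrichment, at its regions 783 and 4912 bp upstream 1.2 (0.849 to 1.72) and 1.30 (0.986 to 1.71), and at the upstream *Cxcl5* region 0.948 (0.835 to 1.08). The *Cxcl11* start-site region, which is not among the 31, had 1.64 (1.22 to 2.21). Over the members the median log2 ratio was 0.01, beside -0.04 over all regions, and -0.05 beside -0.05 as fold enrichment.

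The other chemokine genes were counted in the same way, leaving out regions already in a member's window. All 26 other ligands matched the annotation, with 132 regions, and 3 of them (*Ccl8*, *Ccl12* and *Xcl1*) had none. Gained regions numbered 30 of 104 strong regions after Oxali, 30 of 107 after Cispl, 5 of 73 after IFNγ and 38 of 116 after Oxali + IFNγ, which is 28.8%, 28.0%, 6.85% and 32.8% beside 31.4%, 36.5%, 11.8% and 38.1% over all regions. A strong region at the start in Ctrl was found for 9 of the 26. All 7 receptors matched as well, with 53 regions, of which 16 of 32, 22 of 38, 3 of 18 and 22 of 38 strong ones were gained, or 50%, 57.9%, 16.7% and 57.9% beside the same shares over all regions, and 1 receptor had a strong start-site region in Ctrl. Of these genes, the highest numbers of gained regions over the 4 treatments were found for *Ccr6*, the receptor of CCL20 (8, 7, 2 and 9), *Cxcl13*, a B cell attractant (5, 5, 1 and 7), and *Ccl6* (4, 6, 0 and 7). Over the other ligands' 68 regions called in every list, the median log2 change was 0.26, 0.16, -0.29 and 0.18.

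Sequence matches within 100 bp of the highest summit were counted as a description. A κB match was found in 6 of the 60 members' regions (10%) and in 2.55% of all 211107 regions. The ISRE core was found in 4 (6.67%, beside 2.58%), the GAS element in 2 (3.33%, beside 6.05%) and the AP-1 element in 22 (36.7%, beside 21%). Median GC content of the windows was 48% and 49.3%. The κB matches fell in 3 of the 18 interferon-induced, 1 of the 27 NF-κB-induced and 2 of the 15 other regions, and those at interferon-induced ligands were the start-site regions of *Cxcl10* and *Cxcl11* and the region 4912 bp before *Cxcl10*. Matches elsewhere in a region were not counted. The κB runs before *Cxcl1* and *Cxcl2* and the ISRE match before *Cxcl10* lie within the start-site regions but beyond 100 bp of their summits. In the 250 bases before RefSeq starts, 4 of the 5 members found had a κB match, all but *Cxcl9*, beside 4.46% of 27025 genes, and *Cxcl10* had an ISRE match, beside 3.46%. Of these 4, *Cxcl1*, *Cxcl2* and *Cxcl10* had a region at the start in every list and *Ccl20* in none.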

How the data were processed

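Myc-CaP ATAC-seq libraries, 2 per group, were trimmed by the authors with cutadapt, aligned to mm10 with Bowtie2 2.2.8, filtered with SAMtools, freed of duplicates and mitochondrial reads, pooled within a group and called with MACS2 2.1.0 (p-value of at most 0.01, no control library), with versions from the submitters' processing notes. The deposited lists hold, per summit, the fold enrichment (a ratio of pileup to local background) and the −log10 of the p-value and q-value as the authors' caller wrote them. Counts per library are not analysed here.

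Each summit's whole-number pileup and local background were recovered from its fold and −log10 p-value, for 100% of summits in every list. An interval with several summits counted once, with its highest pileup. A missing call was set to the smallest pileup that the list's lowest −log10 p-value would have called at the local background there. Intervals on ratios were exact conditional (Clopper-Pearson) and those on pileups exact Poisson, both for counting error only; those on set differences used a normal approximation of the log ratio. Python 3.11.15, numpy 2.4.6, pandas 2.3.3 and scipy 1.17.1 were used, and the steps were tested on simulated data. Alternatives are given in the closing section.

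The members, the ligand sets and the marker lists were chosen with earlier results of these data known. Regions described singly were every start-site region of a member, the 3 of largest change in each set, and the 3 gained regions of highest level per treatment; of other chemokine genes, the 3 with most gained regions. The remaining regions named (all other regions of *Ccl5* and *Cxcl16*, the *Cxcl10* region 9341 bp upstream, the second *Cxcl11* exon region, the *Art3* region at 92369029, the *Cxcl9* exon region and those of *Ccl20*) were chosen after their values were seen. Some of the marker genes examined are not reported here.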

Additional observations from a re-analysis of the deposited data

How the results depend on the processing

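No paired analysis was possible because each deposited list already joins both libraries of its group, and no single library could be left out either. Values stand in the order Ctrl, Oxali, Cispl, IFNγ and Oxali + IFNγ, without Ctrl for comparisons. Strong regions at the members numbered 17, 23, 20, 17 and 24 in windows of 5 kb and 66, 91, 95, 70 and 100 in windows of 50 kb. Gained regions numbered 6, 3, 0 and 7 in windows of 5 kb and 28, 31, 11 and 37 in windows of 50 kb. With a q-value of at most 1e-05 the gained counts became 2 with IFNγ and 12 with Oxali + IFNγ, and with every deposited region 8 with IFNγ. Gains more than 500 bp from any Ctrl region, a setting added once the data had been seen, numbered 6 with Cispl and 3 with IFNγ. The difference between interferon-induced and NF-κB-induced ligands was 0.24, 0.23, -0.034 and 0.054 as a difference of medians, 0.37, 0.42, 0.22 and 0.53 in windows of 5 kb, and 0.22, 0.37, 0.019 and 0.32 without the strongest region of each set. As deposited fold enrichment it was 0.10 with Oxali and -0.035 with IFNγ, with missing calls at their threshold 0.043 with Oxali + IFNγ, and with *Ccl5* and *Cxcl16* among the NF-κB-induced ligands 0.031 with Cispl. The cause of these shifts was not tested. Scaling by the median pileup of regions called in every list moved every log2 change by -0.37, -0.26, 0.23 and -0.37, and scaling by their median ratio, also added once the data had been seen, by -0.17, -0.06, 0.21 and -0.14; neither moved the difference between the sets. Of 180 other values (changes of the sets and of start-site regions), 75 stayed within counting error, 105 moved beyond it and 0 of those at least 1.5-fold changed sign; smaller changes did, as at the *Cxcl2* start. Depth limited weak regions: about 21 reads were needed for a call in Ctrl at the genome background.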
